A study of Mus musculus with 3 samples.

Results

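The response described here is what 3 cultures of stimulated CD4 T cells had in common when each was set against naive CD4 T cells, whatever cytokines were in the medium. All 3 arrays of the series entered it (3 of 3), each with RNA of cultured cells in the Cy5 channel and RNA of naive cells in the Cy3 channel. A gene entered when its probe was well above background in both channels on every array, which held for 10367 of the 19751 genes that the probes could be matched to. The measure is the log2 ratio of the cultured over the naive channel on each array, and the mean and SD of the 3 ratios.

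The cultured cells were naive CD4 T cells of C57BL/6 spleens (mice aged 6 to 8 weeks), kept for 3 days on plates coated with anti-CD3e (10 µg/ml) with soluble anti-CD28 (10 µg/ml). To these, Th2 medium added 5 ng/ml IL-4 with 1 ng/ml IL-2 and 2 µg/ml of an IFNγ-blocking antibody. Th9 medium had TGF-β1 at 2 ng/ml together with 1 ng/ml IL-4, IL-2 at 0.2 ng/ml and the IFNγ block at 5 µg/ml. In iTreg medium TGF-β1 was at 5 ng/ml and IL-2 at 0.4 ng/ml, with blocking antibodies to IFNγ and to IL-4 at 5 µg/ml each. The naive cells were purified from the same tissue by magnetic sorting and had no culture. Stimulation through both receptors, IL-2 and a block of IFNγ were thus common to the cultures, and no culture stimulated without polarising cytokines or without the IFNγ block was among the samples. The labels give neither the number of mice nor whether the 3 naive channels held 1 RNA extract. There was 1 array per medium, so each SD given here is a spread between media and not between repeats of a culture. The dyes were not swapped and the arrays shared 1 slide, so a gene-specific dye effect and a difference between cultured and naive cells cannot be told apart.

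Each array carried 43020 spots for genes. Cultured channels exceeded background clearly at 48.9% to 51.0% of them and naive channels at 53.0% to 54.1%, and none was saturated. The spots of replicated probes (up to 10 each) varied within an array by an SD of 0.0461 to 0.0508 on the log2 scale, taken as the median over probes. Over the 3 arrays, with each channel quantile-normalised, the median gene had an SD of 0.263 in the cultured channel and 0.0420 in the naive channel. The median standard error of a mean log2 ratio was 0.142.

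A T cell that meets antigen leaves quiescence, enlarges and divides, and it takes up aerobic glycolysis, in which glucose is turned to lactate even when oxygen is present. Signals through mTOR, MYC and HIF-1 raise glucose transport and glycolytic enzymes, SREBP-2 raises the enzymes that make cholesterol for new membranes, and ATF4 raises amino acid synthesis. At the same time FOXO1-driven genes of the naive state, such as those for homing and for IL-7 reception, are turned down.

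The promoters of a few leading genes are shown first, because these genes changed strongly in the same direction in all 3 cultures. The sequences are from RefSeq (GRCm38.p6) and run 5′ to 3′ on the gene's strand over the 250 bases before the start. In the first group, genes that HIF-1 is known to induce, capitals mark the core of the hypoxia response element, ACGTG or its reverse complement. Mgarp encodes a mitochondrial protein, Egln3 a prolyl hydroxylase that marks HIF for destruction, Slc16a3 the lactate exporter MCT4, and Bnip3 a mitophagy receptor. The windows lie at chr3:51396548-51396797 (minus strand), chr12:54203875-54204124 (minus), chr11:120948817-120949066 (plus) and chr7:138909507-138909756 (minus).
Mgarp: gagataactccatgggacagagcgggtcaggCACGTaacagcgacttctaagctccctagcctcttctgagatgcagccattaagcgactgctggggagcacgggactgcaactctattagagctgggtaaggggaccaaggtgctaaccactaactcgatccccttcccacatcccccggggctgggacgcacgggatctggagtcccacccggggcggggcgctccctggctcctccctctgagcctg
Egln3: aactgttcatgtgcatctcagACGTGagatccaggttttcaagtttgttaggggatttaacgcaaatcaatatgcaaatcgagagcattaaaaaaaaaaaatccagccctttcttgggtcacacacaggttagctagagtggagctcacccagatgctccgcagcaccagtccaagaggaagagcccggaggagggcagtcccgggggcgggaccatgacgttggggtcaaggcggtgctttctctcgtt
Slc16a3: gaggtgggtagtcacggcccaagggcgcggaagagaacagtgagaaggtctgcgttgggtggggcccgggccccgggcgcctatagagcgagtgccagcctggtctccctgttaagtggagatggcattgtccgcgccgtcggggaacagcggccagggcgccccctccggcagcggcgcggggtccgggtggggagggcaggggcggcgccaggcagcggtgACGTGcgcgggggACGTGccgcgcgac
Bnip3: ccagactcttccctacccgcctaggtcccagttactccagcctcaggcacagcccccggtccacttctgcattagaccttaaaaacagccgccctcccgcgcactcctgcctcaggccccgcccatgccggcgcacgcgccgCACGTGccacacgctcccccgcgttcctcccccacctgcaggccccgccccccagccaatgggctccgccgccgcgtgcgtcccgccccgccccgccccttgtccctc
The Bnip3 site is the palindrome CACGTG, which holds the core on both strands and is also the E box searched below.

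Asns encodes asparagine synthetase, a target of ATF4, and capitals in its promoter (chr6:7693210-7693459, minus strand) mark the C/EBP-ATF element TGATGNAA. Ube2c encodes a ubiquitin-conjugating enzyme that works with the anaphase-promoting complex at mitotic exit, and capitals in its promoter (chr2:164769679-164769928, plus strand) mark the cell cycle homology region TTTGAA on the opposite strand. Ifit3 and Oas1a are interferon-stimulated genes that were lower in culture, an antiviral adaptor and a synthetase of 2′-5′ oligoadenylate. Capitals in their promoters (chr19:34583279-34583528, plus strand, and chr5:120907526-120907775, minus strand) mark the interferon-stimulated response element, searched as a pair of GAAA stretches with any 2 bases between them, on either strand.
Asns: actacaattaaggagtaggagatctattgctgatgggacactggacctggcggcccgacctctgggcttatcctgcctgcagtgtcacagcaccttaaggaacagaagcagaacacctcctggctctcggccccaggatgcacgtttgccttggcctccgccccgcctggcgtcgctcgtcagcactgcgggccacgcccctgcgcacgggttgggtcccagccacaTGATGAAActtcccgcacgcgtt
Ube2c: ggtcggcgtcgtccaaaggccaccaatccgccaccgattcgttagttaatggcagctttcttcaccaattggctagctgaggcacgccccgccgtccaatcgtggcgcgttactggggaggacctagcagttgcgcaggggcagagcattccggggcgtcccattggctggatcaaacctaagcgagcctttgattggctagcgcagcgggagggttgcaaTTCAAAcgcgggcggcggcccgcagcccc
Ifit3: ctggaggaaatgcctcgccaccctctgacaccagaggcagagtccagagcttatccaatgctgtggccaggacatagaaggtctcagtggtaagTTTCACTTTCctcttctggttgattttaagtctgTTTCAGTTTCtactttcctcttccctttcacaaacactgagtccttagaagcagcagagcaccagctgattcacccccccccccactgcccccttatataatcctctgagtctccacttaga
Oas1a: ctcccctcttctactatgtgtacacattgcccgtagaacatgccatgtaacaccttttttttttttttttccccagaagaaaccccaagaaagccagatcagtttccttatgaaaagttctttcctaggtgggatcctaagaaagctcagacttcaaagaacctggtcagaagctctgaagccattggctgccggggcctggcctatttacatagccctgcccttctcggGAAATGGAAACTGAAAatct
In Oas1a the capitals are a pair of overlapping matches.

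A search of the whole window in the table (those bases and 50 after the start, both strands) set the lists of genes beside all measured genes. The core ACGTG was found in 20 of 24 promoters of the list for the response to low oxygen (83.3%), beside 30.1% of 8381 measured genes and 21.8% of all 27025 genes in the table. The interferon-stimulated response element lay in 19 of 29 promoters of interferon-stimulated genes (65.5%), beside 3.68% of measured genes and 3.99% of all. TGATGNAA was found in 10 of 28 promoters of the ATF4 list (35.7%), beside 2.68% and 4.51%. TTTGAA lay in 20 of 29 promoters of mitosis genes (69.0%), beside 14.6% and 20.2%. The E2F motifs TTTGGCGC and TTTCCCGC were found in 10 of 31 promoters of replication genes (32.3%), beside 3.57% and 1.80%, and the E box CACGTG in 9 of 30 of ribosome biogenesis genes (30.0%), beside 12.1% and 8.09%. The lists were drawn from genes known to be driven by these factors, so the shares within them describe the lists and not the arrays. Over genes called on the arrays (by the rule given next) the shares were closer to those of all measured genes. ACGTG was in 205 of 606 promoters of genes called higher (33.8%) and in 25.1% of those of genes called lower. The interferon-stimulated response element was in 34 of 509 promoters of genes called lower (6.68%) and in 2.15% of those called higher. In genes called higher and lower, TTTGAA was in 19.3% and 14.7% and TGATGNAA in 3.30% and 2.75%. The E2F motifs were in 3.47% and 2.95%, both below the share of measured genes, and the E box was in 9.57% and 13.6%.

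**Figure D1:**
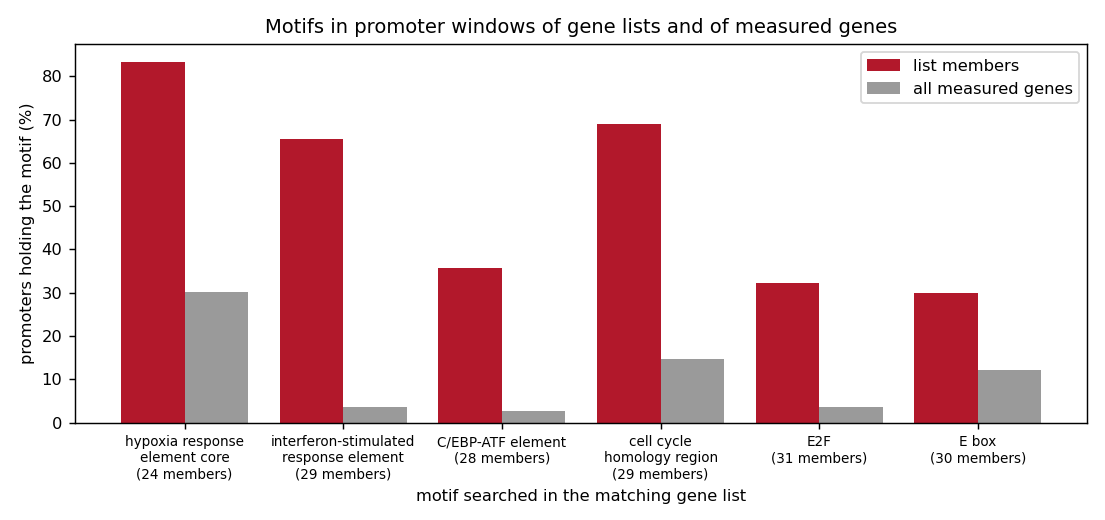
Share of promoter windows (300 bases, both strands) that hold each motif, in percent. Red bars are the members of the list the motif was searched for, grey bars all 8381 measured genes with a promoter in the table. The share was higher in the list for each of the 6 motifs, from 30.0% to 83.3% in the lists against 2.68% to 30.1% in measured genes.

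A gene was called when its log2 ratio was at least 1 in the same direction on each array (2-fold) and limma's test of the mean against 0 had an adjusted p under 0.05. The test sets the mean over media against the spread between media and leaves out the spread of naive cells. By this rule 754 of 10367 genes were higher in the cultures (7.27%) and 623 were lower (6.01%). These are the shares to set beside each count of called list members. Every gene that met the size condition also met the p condition. By adjusted p alone 2333 genes were higher (22.5%) and 2652 were lower (25.6%), most of them by under 2-fold on some array. Nearest to the size limit among called genes were Arrb1 and Tbl1xr1 (higher, with means of 1.36 and 1.11) and Scap and Msra (lower, with -1.13 and -1.14). Just outside it lay Sh3rf1, Tmed3, Prkx and Lasp1, with means of 1.26, 1.37, -1.10 and -1.36. The median called-higher gene had a mean log2 ratio of 2.08 and an SD of 0.380, and the median called-lower gene had -1.69 and 0.300. For 305 of the 754 (40.5%) and 289 of the 623 (46.4%) the SD between media was within the scanner software's error for a single spot. A mean log2 ratio of 3 or more was seen for 111 genes, and of -3 or less for 49.

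**Figure D2:**
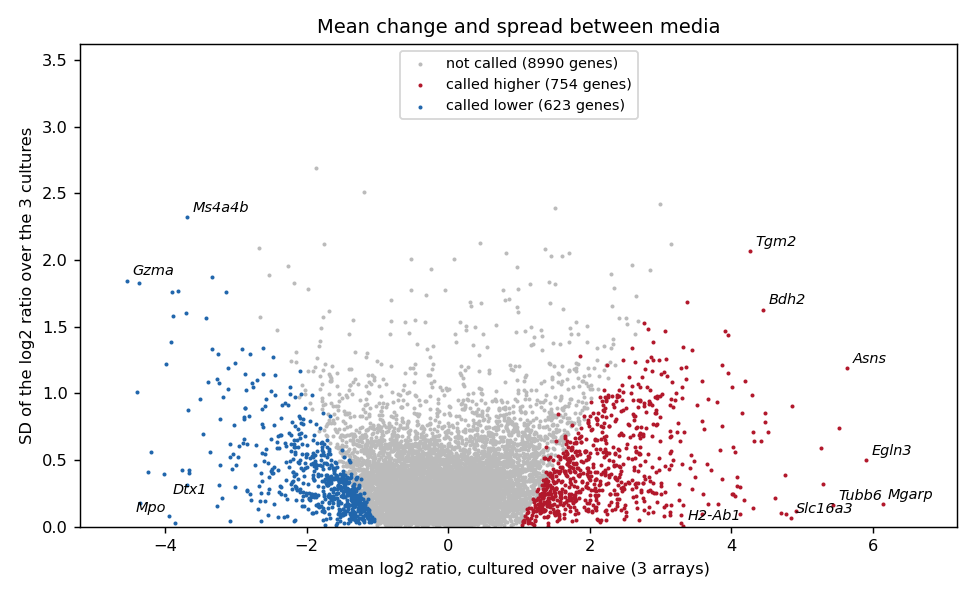
Each point is 1 of 10367 genes. The x axis is the mean log2 ratio of cultured over naive on 3 arrays and the y axis is the SD of the 3 ratios between media. Red points were called higher (754), blue points lower (623). Mgarp and Slc16a3 sit far right and low, with SDs of 0.167 and 0.0631, while Gzma, the gene with the lowest mean, has an SD of 1.84.

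The labelled state was checked against markers of T cell activation and of naive T cells. Of 22 measured activation receptors 10 were called higher and none lower. Tnfrsf4 (OX40, a costimulatory receptor) had normalised intensities of 106470, 91411 and 63284 in the Th2, Th9 and iTreg cultures, against 4991, 5077 and 4920.0 in the naive cells of the same arrays. Ctla4, the inhibitory receptor that competes with CD28, stood at 3249, 6742 and 3916, against 335, 371 and 342. Il2ra, the α chain of the IL-2 receptor, reached 4568, 5436 and 13720 in the cultures, against 907, 919 and 912 in naive cells. The lowest culture lay above the highest naive channel for these 3 genes, and the means were 17.0-fold, 12.6-fold and 7.65-fold higher. Tfrc, the transferrin receptor, had log2 ratios of 3.75, 3.87 and 1.64. Cd44, the hyaluronan receptor of antigen-experienced cells, had 2.72, 3.17 and 2.68 by its brightest probe, and its other probe averaged 0.58. Tnfrsf9 (4-1BB) averaged 4.06 by its brightest probe and 0.55 by the other. Its naive channels, at 1026, 987 and 569, fell in the order of its cultures, at 18815, 17954 and 7838. Icos was not called, with ratios of -0.12, -0.27 and 0.36, and Cd69, an early marker of stimulation, lay below naive at -1.03, -1.47 and -0.55 (adjusted p = 0.0243, not 2-fold on every array). All 19 listed genes of the T cell receptor complex and T cell identity were above background in every channel.

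The 2 highest means of all genes tested belonged to the response to low oxygen. Of the 27 genes listed, 25 were measured, 16 were called higher and none lower, and the median of their mean log2 ratios was 2.33, beside -0.04 over all genes tested. The list was chosen with earlier results of these data known and holds the markers Mgarp, Egln3 and Slc16a3. Its counts are thus a description and no test. Adm lay above background in the cultured channels only, with log2 ratios of at least 1.95, 2.49 and 0.33 on the Th2, Th9 and iTreg arrays, and Mxi1 was not measured. Mgarp, the gene with the highest mean of all, had normalised intensities of 11647, 10629 and 9238 in the Th2, Th9 and iTreg cultures and 151, 144 and 149 in the naive cells on those arrays. Egln3 had 14861, 10094 and 6417 in culture, against 184, 153 and 156 in naive cells. Slc16a3 had 19956, 17770 and 22033, against 700.0, 646 and 735. For each of these markers the cultures stood far above the naive channels with no overlap, Slc16a3 was nearly level across media, and Egln3 was lowest in iTreg. The mean log2 ratios were 6.14 ± 0.167 for Mgarp, 5.91 ± 0.50 for Egln3 and 4.84 ± 0.0631 for Slc16a3 (SD between media, n = 3 arrays), with adjusted p of 0.00200, 0.00300 and 0.00200. The second probe of Egln3 averaged 5.13 and that of Slc16a3 4.50.

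Within this list the genes fell into roles. Among regulators of the pathway, Egln1, the main oxygen-sensing hydroxylase, rose to 423, 407 and 438 in culture, against 174, 189 and 195 in naive cells, a mean log2 ratio of 1.18 beside 5.91 for its paralogue Egln3. Egln1 lost its call with median centring only and when the arrays were scaled to a common spread, at means of 1.17 and 1.20. Hif1a itself, the oxygen-regulated subunit, had log2 ratios of 1.65, 1.14 and 0.57 and was not called. Among mitochondrial members, Bnip3 had intensities of 34449, 36657 and 41039, against 1339.5, 1328 and 1404, and its other probe averaged 5.72 where this one averaged 4.78. Ak4, an adenylate kinase of the mitochondrial matrix, reached 4899.8, 5369.8 and 3433 in the cultures, against 125, 109 and 108. Both had cultures and naive cells fully apart. Ndrg1, a stress-induced protein, averaged 4.91 ± 0.119. Ero1a, the oxidase that forms disulphide bonds in the endoplasmic reticulum, had ratios of 4.88, 4.77 and 2.94, and P4ha2, a collagen prolyl hydroxylase, 4.20, 3.86 and 2.70, each lowest in iTreg. Vegfa, the angiogenic factor, had 3.10, 3.17 and 2.89. The genes that did not pass included Pdk1, the kinase that shuts pyruvate dehydrogenase, with -0.20, -0.35 and 0.83, and Ddit4, an mTOR inhibitor, with 0.43, 0.25 and -1.13, whose directions differed between media.

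All 20 listed genes of glycolysis and lactate export were measured, 18 were called higher and none lower, and the median mean log2 ratio was 2.67. Slc2a1 and Slc16a3 are counted in the low-oxygen list too. At entry, the glucose transporters had ratios of 3.17, 2.82 and 2.11 for Slc2a1 (GLUT1) and of 2.83, 2.63 and 2.56 for Slc2a3 (GLUT3). Hexokinase 2, which traps glucose in the cell, had intensities of 4339.8, 4144 and 2658 in culture, against 237, 199 and 169 in naive cells. Hexokinase 1 had 19858, 15416 and 13453, against 11201, 10909 and 10340, and was not called. The means of these paralogues were 18.2-fold and 1.48-fold higher. Through the middle of the pathway, Aldoc (aldolase C) averaged 4.13 ± 0.0979, Tpi1 (triosephosphate isomerase) 4.62 ± 0.219 and Pgk1 (phosphoglycerate kinase) 4.12 ± 0.302 on the log2 scale. Gapdh had 7 measured probes, which averaged from 2.04 to 3.25, with 3.12 by the brightest. At the end of the pathway Pkm (pyruvate kinase) averaged 2.15 ± 0.0339 and Ldha, which makes lactate, 1.98 ± 0.180. Of the lactate transporters, Slc16a1 (MCT1) had 212, 195 and 176 in culture, against 212, 208 and 183 in naive cells, which overlapped, while Slc16a3 stood 28.6-fold higher. The smallest change among those called was in Pfkl, the liver type of phosphofructokinase, at 1.49 ± 0.168. By contrast none of 29 measured subunits of oxidative phosphorylation was called in either direction, with a median of 0.12. That median rose to 0.83 when each array was only centred on its median.

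**Figure D3:**
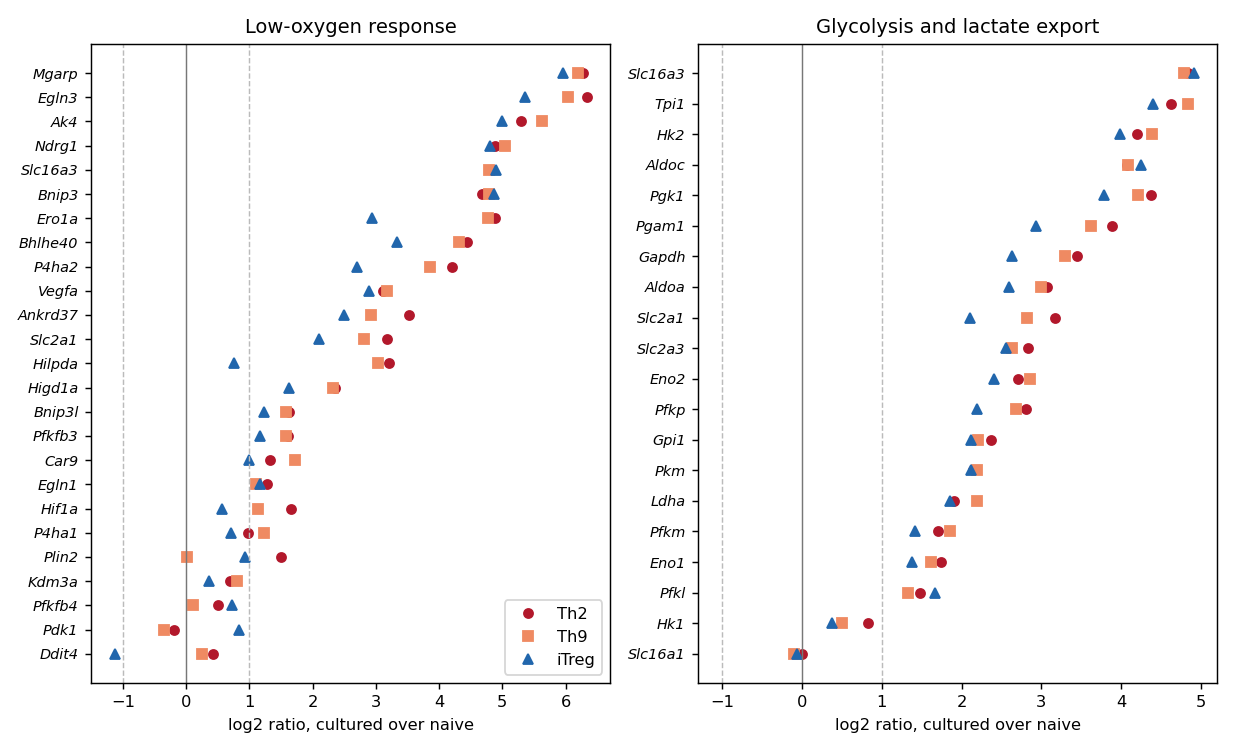
Log2 ratio of cultured over naive for each measured gene of the low-oxygen list (left, 25 genes) and of glycolysis and lactate export (right, 20 genes), ordered by mean. Symbols are the Th2, Th9 and iTreg arrays, and dashed lines mark 2-fold. All 3 symbols lie right of the 2-fold line for 16 genes on the left and 18 on the right, and Slc16a1 sits at 0 (mean -0.05).

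Genes of mitosis were higher in every culture, and a smaller share of replication genes passed. Of 32 measured mitosis genes 25 were called higher and none lower, with a median of 2.68, and every one had a mean above 0. Ube2c had intensities of 11956, 13786 and 3452 in the Th2, Th9 and iTreg cultures, against 757, 803 and 625 in naive cells. Nusap1, which bundles spindle microtubules, had 4195, 5315 and 1348, against 322, 309.5 and 309.6, and Tpx2, the activator of Aurora A, had log2 ratios of 3.82, 4.12 and 1.93. The cultures did not overlap the naive channels for these genes, and iTreg was the lowest culture for each. The median ratio of the list was 3.05 in Th2, 3.19 in Th9 and 1.65 in iTreg. Cdc25b, a phosphatase of mitotic entry, had 0.86, 0.64 and 0.43 and was not called. Of 36 measured replication genes 9 were called higher and none lower, with a median of 1.09. Gins2, a subunit of the replicative helicase, had 3.12, 3.21 and 1.52, Uhrf1, which carries DNA methylation through replication, 2.91, 2.99 and 1.27, and Mcm10, an initiation factor, 2.75, 2.56 and 1.23. The lowest members were the licensing factor Cdt1, with -0.39, -0.40 and -1.33, the helicase subunit Mcm2, with -0.10, -0.01 and -1.30, and Pcna, the sliding clamp, with -0.12, 0.25 and -0.40. None of the last 3 was called. Cdkn1a, the inhibitor p21, was also called higher, with 5.01, 4.94 and 3.50. Its raw naive spots of 244, 175 and 89.6 fell in the order of its cultured spots (11043, 6995 and 1362). The naive level under these ratios was thus uneven, and the part this plays in them was not tested.

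Of 25 measured genes of cholesterol synthesis and uptake 18 were called higher and none lower, with a median of 1.96. Hmgcs1, which makes the precursor HMG-CoA, had intensities of 23486, 20021 and 16052 in culture, against 3486, 3553 and 3556 in naive cells. Pmvk, phosphomevalonate kinase, had 18438, 18050 and 18839, against 3367, 3284 and 3187, with an SD of 0.0621 between media that placed it among the 10 most even of the strongly raised genes. Stard4, a carrier of sterol between membranes, averaged 3.13, or 2.35 by its other probe. Of 11 genes of fatty acid synthesis 2 were called higher and none lower, beside 7.27% and 6.01% of all genes tested. Their median was 0.28, and Scd2, a desaturase, averaged 4.31 ± 0.713.

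The ATF4 list of amino acid and one-carbon genes had 4 of 28 called higher and none lower, with a median of 0.84. Over all genes tested 7.27% were called higher and 6.01% lower. Asns had the third highest mean among the genes tested, with intensities of 18989, 12761 and 2553 in the Th2, Th9 and iTreg cultures, against 209, 183 and 131 in naive cells. The iTreg culture was far below the others and yet well above naive, and the naive channels fell in the order of the cultures. Trib3, a pseudokinase induced by ATF4, had 2.88, 2.17 and 2.23. The lowest members were Slc38a2, a neutral amino acid transporter, with -0.91, -1.18 and -1.26, and Wars, with -0.76, -1.06 and -0.74 (0.03 on average by its other probe).

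None of 33 measured ribosome biogenesis factors was called higher and 6 were called lower, with a median of -0.58 (-0.33 with median centring only). Heatr1, of the processome that cuts the small-subunit RNA, had 2572, 2204 and 2178 in culture, against 7931, 8204 and 7552 in naive cells. Bop1 had ratios of -1.56, -1.72 and -1.19, while Pes1, its partner in the large-subunit complex, averaged -1.86 by its brightest probe and 0.24 by the other. Npm1, a nucleolar chaperone, had 1.52, 1.53 and 0.68 and was not called, but it was called higher with median centring only, with a mean of 2.44, and without the iTreg array, with 1.52. None of 30 cytosolic ribosomal proteins was called, with a median of 0.25. That median was 1.54 with median centring only. Of 16 MYC and polyamine genes 2 were called higher and none lower, beside 7.27% and 6.01% of all genes tested. Myc had 0.78, 0.50 and 0.64 and was not called, while Odc1, the MYC target that starts polyamine synthesis, averaged 3.01 ± 0.243.

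**Figure D4:**
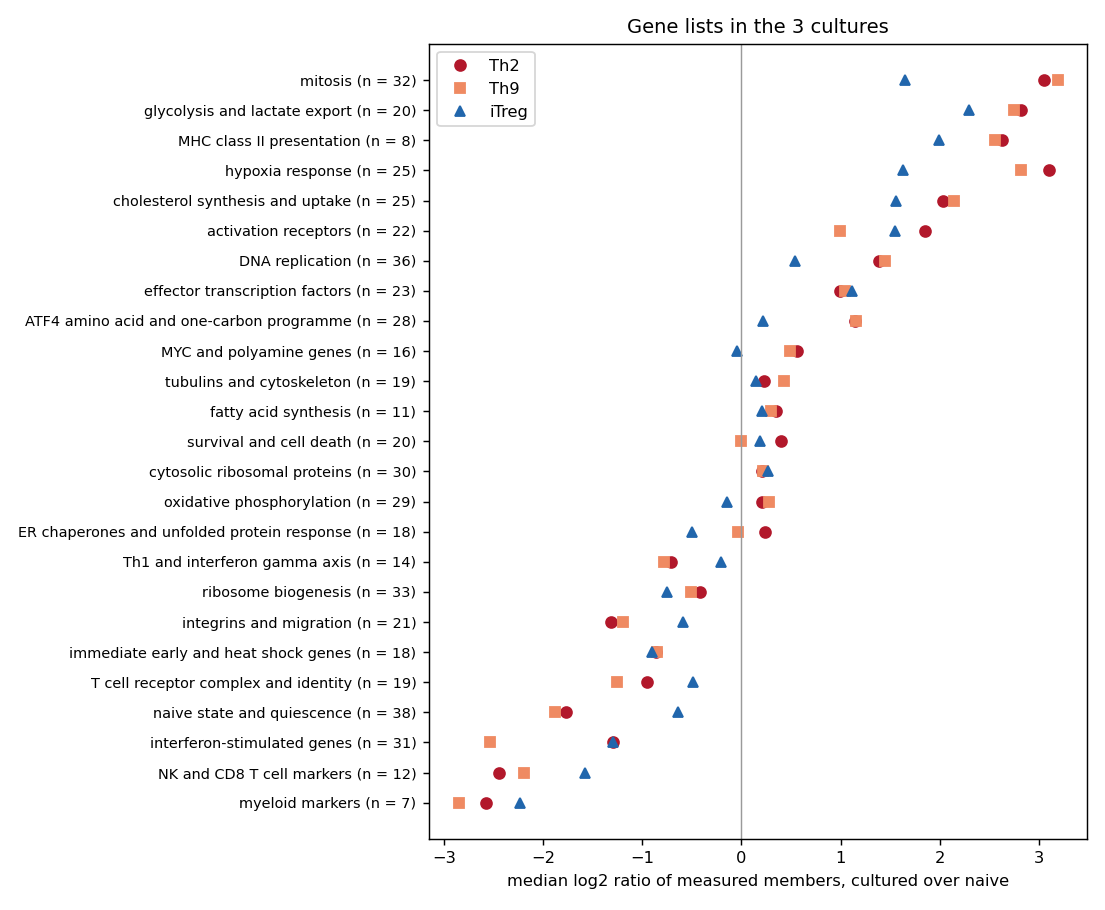
Median log2 ratio of cultured over naive for gene lists with at least 5 measured members, ordered by the median of gene means, with 1 symbol per culture and the number of measured members in brackets. Mitosis, glycolysis and class II presentation lie at the top and myeloid, NK and CD8 and interferon-stimulated genes at the bottom. The median over all 10367 genes was -0.04.

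Among transcription factors of effector cells 7 of 23 were called higher and 1 lower. Irf4, which scales with the strength of stimulation, had intensities of 4724, 3606 and 3808 in culture, against 324, 307 and 316 in naive cells, and was nearly level across media. Bhlhe40 averaged 4.03 and Nfil3 3.96, each lowest in iTreg. Tbx21 (T-bet, the Th1 regulator) was the member called lower, with 291, 197 and 143, against 1229.7, 1244 and 1186. The IFNγ block was in every medium. Of 14 measured genes of the Th1 and interferon gamma axis 5 were called lower and none higher, with a median of -0.34 that was 0.00 with median centring only. The steepest were the chemokine Ccl5, with ratios of -1.81, -4.15 and -3.39, and the receptor Cxcr3, with -3.64, -3.81 and -1.60.

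Of 38 measured genes of the naive state, 14 were called lower and 1 higher, with a median of -1.49 (-1.04 with median centring only). Il7r, the receptor for the survival cytokine IL-7, had intensities of 1584, 553 and 1958 in the Th2, Th9 and iTreg cultures, against 13558, 13507 and 13890 in naive cells. Klf2, a factor that drives S1pr1, had 1284, 2860.0 and 16362, against 38591, 40682 and 39411. The cultures lay below the naive channels without overlap in both genes, and the iTreg culture was nearest to naive. Lef1 had ratios of -2.13, -2.46 and -1.44 and Tcf7, its paralogue, -2.28, -2.27 and -0.68, which was under 2-fold in iTreg and not called. Ccr7, the lymph node chemokine receptor, had -0.66, -0.22 and 0.85, with no common direction. The member called higher was Ccng2, an atypical cyclin, with 1.81, 2.02 and 1.55. Ms4a4b, a surface protein of T cells, had the widest spread of any gene called lower, with -5.10, -4.97 and -1.02, and was not called with median centring only (mean -2.85), with plain background subtraction (-3.64), without the filter on dim probes (-3.69), without the Th2 array (-2.99) or without the Th9 array (-3.06).

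In the list of the T cell receptor complex and T cell identity 3 of 19 genes were called lower and none higher. Over all genes tested these shares were 6.01% and 7.27%. The median of the list was -1.02 (-0.23 with median centring only). Those called included Thy1, with -1.43, -1.60 and -1.01, and the zinc finger factor Bcl11b, with -1.63, -1.64 and -1.06. With median centring only, Thy1 averaged -0.23 and Bcl11b -1.07, and neither was called. Cd3e had -1.94, -1.91 and -0.89 and Cd4 -0.62, -0.47 and -0.35, and neither was called. Of 21 measured integrins and migration receptors 8 were called lower and 2 higher. Itgb7, the gut-homing integrin chain, had -2.39, -2.58 and -1.90, and Gpr183, an oxysterol receptor, -2.45, -3.07 and -2.12. The pair called higher were the chemokine receptors Ccr8, with 2.54, 2.93 and 3.35, and Ccr4, with 2.32, 2.14 and 1.59.

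Of 31 measured interferon-stimulated genes, 14 were called lower than in naive cells and none higher, with a median of -1.79, and 30 had a mean below 0. Oas2 had 238, 223 and 254 in culture, against 2000.2, 1962 and 2122 in naive cells, and Ifit3 had 356, 381 and 378, against 1820.1, 1876 and 1725. Both were level between media, with SDs of 0.0408 and 0.0835. Oas1a averaged -4.02 by its brightest probe and -2.02 by the other. Slfn8 averaged -4.40 ± 1.01, and Isg15, the ubiquitin-like modifier, had -1.09, -2.68 and -2.93. The exception with a mean above 0 was Dhx58, a regulator of RNA sensing, with 0.46, 0.04 and 0.26. H2-K1, the classical class I molecule, had 55318, 48275 and 43615 in culture, against 302960, 298110 and 258920 in naive cells, 5.86-fold lower on average. With median centring only its mean was -1.26 and it was not called, nor was Isg15 (-1.89).

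Immediate early and heat shock genes had 6 of 18 called lower and none higher, with a median of -0.77. Early genes of the NR4A family were not in this list. Of that family Nr4a2 was called higher, with ratios of 2.63, 3.06 and 2.17, and Nr4a1, with 0.91, 1.18 and 1.80, was not called. Fos had 463, 330.4 and 398 in culture, against 2726, 2722 and 2748 in naive cells, and Jun had ratios of -2.62, -2.15 and -1.28. Among chaperones, Hsph1 had -2.74, -2.64 and -3.14 and Dnaja1 -2.33, -2.39 and -2.25. Of 20 survival and death genes 3 were called higher and 1 lower, beside 7.27% and 6.01% of all genes tested. Bcl2l1 (Bcl-xL, anti-apoptotic) had 2.45, 2.58 and 1.75, and Pmaip1 (Noxa, pro-apoptotic) 2.43, 2.75 and 3.08, while Mcl1, another protector, had -1.18, -1.30 and -1.07. Dnaja1 and Mcl1 were not called with median centring only, with means of -1.41 and -0.39. The chaperone list of the endoplasmic reticulum held 1 called gene of 18, Xbp1, with 1.64, 1.64 and 1.12, and its median was -0.12, which turned to 0.15 with median centring only. Among 19 tubulin and cytoskeleton genes 2 were called higher, beside 7.27% of all genes tested. One was Tubb6, a β-tubulin isotype, with intensities of 17279, 24589 and 9390.5, against 397, 508 and 244.

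Markers of other cells moved with the contrast, and beside them it holds for every gene that fewer cells of a type and less RNA per cell cannot be told apart in bulk RNA. Of the 21 NK and CD8 T cell markers listed, 12 were above background in all 3 cultures and 20 in all 3 naive channels. Their summed intensity was 14773 to 25165 in culture, against 94677 to 99623 in naive cells. Such sums follow the brightest members, and Gzma made up most of this one in naive cells. Ctsw and Xcl1 went the other way in iTreg, with 8135 and 6079, against 3238 and 533 in its naive channel. Of the 12 measured, 6 were called lower and none higher. Gzma (granzyme A) had 9332, 2996 and 661 in the Th2, Th9 and iTreg cultures, against 65040, 60924 and 58798, and Klra4 (a Ly49 receptor) had 208, 154 and 128, against 1904, 2123 and 2077. Gzmb (granzyme B) had 8854, 2300.0 and 314, against 1726, 1304 and 1131, with no common direction. Cd8a was above background in no channel, while Cd8b1, the other CD8 chain, was above it in every channel, with 429, 260.0 and 348 in culture, against 410.3, 453 and 429. Of 23 myeloid markers on the array, 7 were above background in all cultures and 20 in all naive channels. Their sums were 16945 to 48412 in culture, against 61771 to 64448 in naive cells, where Ctss was the largest part. Of the 7 measured 4 were called lower, and among these Fcer1g and Tyrobp are counted in the NK and CD8 list too. Csf1r, Itgam and Ctss were not called, with mean log2 ratios of -0.60, -0.82 and -1.32. Mpo (myeloperoxidase) had 197, 202 and 202, against 2918, 2884 and 2899. Of 10 red cell and platelet markers on the array, 2 were above background in all cultures and 3 in all naive channels, with sums of 1135 to 1809 in culture, against 1970.3 to 2044 in naive cells. The haemoglobin gene Hba-a2 had 456, 429 and 455, against 2765, 2708 and 2932. The part of these cells in the lower interferon-stimulated and Th1 genes was not tested.

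Of 8 measured class II presentation genes, 6 were called higher and none lower, with a median of 2.44. H2-Ab1, a class II β chain, had nearly the same ratio on every array, 3.31, 3.32 and 3.32 on the log2 scale, although its intensity was 26613, 21453 and 13767 in the cultures and 2692, 2150.5 and 1376 in the naive channels of those arrays. Cd74, the invariant chain, had 3918, 4505 and 2532, against 599.8, 593 and 503, and H2-Oa 5833, 6059 and 9926, against 999, 1013 and 1129.9. H2-Aa, the α chain that pairs with H2-Ab1, was not well above background in any culture, and the class II regulator Ciita was above background in no culture. The members not called were H2-Ob, with -1.36, -1.35 and -0.11, and the protease Ctss, with -2.26, -1.58 and -0.10. Among 15 B cell markers on the array 3 were above background in all cultures and 4 in all naive channels, with sums of 3653 to 3955 in culture, against 2018 to 2071. Ms4a1, Cd79a and Pax5 were above background in no channel. Of the 2 measured, Cd79b was called higher, with 2249, 2235 and 2000.3 in culture, against 533, 547 and 561 in naive cells. Cd79b was thus the largest part of the B cell sums in culture.

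For some genes the naive channel moved with the cultured channel of the same array. The order of the naive channels over the 3 arrays matched that of the cultured channels in 21.9% of all genes tested, in 36.2% of genes called higher (273 of 754) and in 55.9% of those with a mean log2 ratio of 3 or more (62 of 111), against 16.1% of genes called lower. For 9 genes, Cdkn1a among them, the naive channels lay 2-fold or more apart, and the order matched in all 9. Mt1, a metallothionein, had raw spot intensities of 76920, 87351 and 14627 in the Th2, Th9 and iTreg cultures, beside 1944, 2147 and 647 in naive cells. The part this plays in the ratios of Cdkn1a, Asns or Tnfrsf9 or in the evenness of H2-Ab1 or Tubb6 was not tested. With the naive level averaged over the arrays, 728 genes were called higher and 612 lower.

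The most even changes among strongly changed genes were in genes of several kinds. Upward, Tle6, a transcriptional corepressor of the Groucho family, averaged 3.29 ± 0.0260, Atpif1, the inhibitor of the mitochondrial ATPase, had little spread too, with ratios of 2.04, 2.09 and 2.16, and Pkm and Slc16a3 were also among the 10 of least spread. Downward, Dtx1, a Notch-induced ubiquitin ligase linked to T cell anergy, had 1799.6, 1619.6 and 1790.4 in the cultures, against 26728, 26617 and 26864 in naive cells. Mpo, Oas2, Ifit3, H2-K1, Dnaja1 and Hba-a2 were in the same group of 10. Some of these were dim in culture, with 197, 202 and 202 for Mpo and 238, 223 and 254 for Oas2. Cd8a, above background in no channel, read 81.6, 82.1 and 84.8 there. The part that dim signal plays in such evenness was not tested. The called genes with the widest spread shared their direction between media and not their size. Tgm2, a transglutaminase, had ratios of 5.71, 5.20 and 1.90, and Rgs16, a regulator of G protein signalling, 2.68, 3.66 and 5.51. Among lower genes Gzma, Klf2 and Ms4a4b were in this group.

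The size of the shared change was not equal between media on the loess scale. The iTreg array held the smallest of the 3 ratios for 538 of 754 genes called higher (71.4%) and for 452 of 623 called lower (72.6%). By the scanner software's log ratio the shares were 68.6% and 72.9%, and with median centring only they were 89.0% and 25.8%. When the arrays were scaled to a common spread the shares were 25.1% and 23.1%. That step makes the arrays equal in spread by construction, so it cannot show whether the sizes differed. The order thus depends on the normalisation and was not tested.

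**Figure D5:**
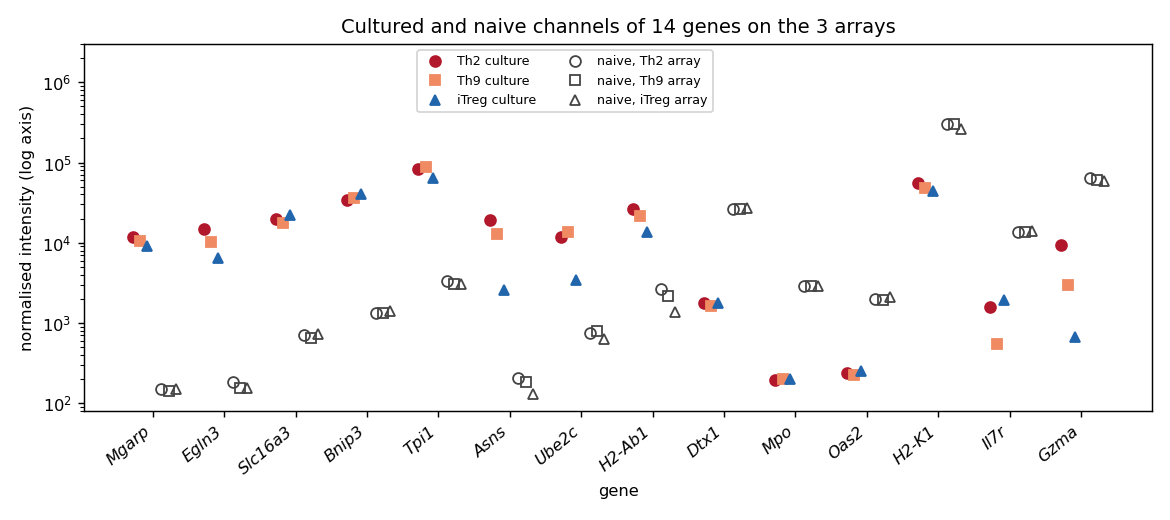
Normalised intensity (log axis) of 14 genes in the cultured channels (filled symbols, Th2, Th9 and iTreg) and in the naive channels of the same arrays (open symbols). Mgarp to H2-Ab1 were higher in every culture and Dtx1 to Gzma lower, and no cultured channel overlapped the naive channels of its gene. For H2-Ab1 the open symbols descend with the filled ones.

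Genes above background in the cultured or the naive channel alone have only a bound. There were 263 such genes on the cultured side and 445 on the naive side. The largest bounds upward included those for Vldlr, a lipoprotein receptor (at least 22.6-fold higher) and Perp, a junction protein (at least 19.3-fold). Downward they were for the NK receptor gene Klrb1c (at least 10.3-fold lower), Phf11c (at least 5.41-fold) and Ncr1, the NK receptor NKp46 (at least 5.15-fold). No p-value was computed for these genes.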

How the data were processed

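RNA of naive CD4 T cells (Cy3) and of a Th2, Th9 or iTreg culture (Cy5) was hybridised together, 1 array per culture. Per the file headers, Agilent Feature Extraction 11.0.1.1 made the deposited scanner files (9.3.2.1 per the submitters' processing notes), which hold the median intensity of every spot and its background in Cy3 and Cy5. They also hold, per the file headers, a log10 ratio from background-subtracted and dye-normalised signals, with its error. The deposited series values are log2 ratios of those processed signals.

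Intensities were corrected by normexp (offset 50) and log2 ratios normalised by loess within arrays in limma 3.58.1 (R 4.3.3, with the packages jsonlite 2.0.0 and data.table, version 1.17.8). Control and outlier spots had no weight in the loess and were left out. Normalised intensities are the 2 channels after loess and a quantile normalisation of mean brightness between arrays, which leaves the log2 ratios unchanged. They compare channels of a gene but not genes with each other. The SD of each channel and the order and distance of naive channels over arrays came from channels quantile-normalised between arrays without loess. Both steps even out differences in level between whole arrays. Of 39429 probes 26055 matched a RefSeq gene of GRCm38.p6 by accession, and 13374 did not. Of 5270 genes with several probes the brightest measured probe stands for the gene. The 17175 probes above background in both channels on all arrays were tested with lmFit and eBayes, adjusted by Benjamini-Hochberg. The fit and the call rule were checked on simulated log2 ratios. Background correction, loess and the filter on dim probes were not part of that check. Bounds set the brighter channel against the dimmest signal well above background, or the dim probe's own. Python 3.11.15, pandas 2.3.3, numpy 2.4.6 and matplotlib 3.10.9 were used after the fit.

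The 27 gene lists and the members were chosen with earlier results of these data known. By rule, named genes were the markers, the highest and lowest means and spreads among called genes, the extreme 3 members of each list in each direction, the largest bounds and the cell markers. Other genes named for their role, such as Gapdh, Ldha, Vegfa, Hif1a, Myc, Mt1, Isg15 and Jun, were chosen after their values were seen. Some genes that the rule names are not reported here. Probes of close families (Klra, Gzm, Ifit, Oas, class I and II, globins, tubulins, glycolytic isozymes) were not tested for cross-hybridisation. The alternatives were other normalisations, background corrections, filters, probe rules and call rules, each array left out in turn and, added after the data were seen, the naive level averaged over arrays. The number of arrays limits the precision, and no interval from counting applies.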

Additional observations from a re-analysis of the deposited data

Results flagged for a closer look

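Among the probes that matched no RefSeq gene of the assembly used, 3997 of 13374 were above background in both channels on all arrays. By the same rule as for named genes, 240 of them were called higher in the cultures and 177 lower than in naive cells. They stand apart because they belong to no gene described here, and their signal differs between cultured and naive channels in all 3 media. No gene name, list or promoter is tied to them.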

How the results depend on the processing

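The counts of called genes moved by less than 1.5 times under every other normalisation, background correction, filter and probe rule tried. They ranged from 705 to 1014 higher, against 754, and from 476 to 800 lower, against 623. Median centring without loess gave 705 higher and 476 lower, of which 608 and 384 were also called before, and put the median of all genes at 0.11, against -0.04. The deposited series values gave 1014 and 733, and the scanner software's log ratio 968 and 800. With 1 array left out the counts ranged from 507 to 1345 higher and from 365 to 1358 lower, the lowest without Th9 (507 and 365) and the highest without iTreg (1345 and 1358). By adjusted p alone they were 2333 and 2652. No paired analysis was possible beyond the test itself, because that test already pairs the culture and the naive cells within each array.

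Of 112 genes named with a test (Nr4a1 and Nr4a2 not among them), 89 were called. None of these changed direction under any alternative, and 23 lost the call under at least 1. Those that changed direction were not called. Ccr7 averaged 1.16 with median centring, 0.0464 with plain background subtraction, 0.11 with scaling between arrays and -0.44 to 0.32 without 1 array. Icos averaged 0.0945 by the series values, 0.27 by the mean over probes, 0.31 with median centring, 0.0650 with plain subtraction, 0.0417 with scaling, 0.0567 by the scanner's ratio and -0.19 to 0.12 without 1 array. Pcna averaged 0.00500 by the series values, 0.51 with median centring and -0.26 to 0.0635 without 1 array. Cd4 (0.11) and Ddit4 (0.98) turned with median centring. Without 1 array Ddit4 ranged from -0.44 to 0.34, Pdk1 from -0.27 to 0.31 and Gzmb from -0.51 to 1.59. The cause was not tested. Without Th9, 19 of the named genes lost their call, among them Gzma, Klf2, S1pr1, Tfrc, Jun and Rgs16, whose means stayed at -4.64, -3.09, -2.44, 2.69, -1.95 and 4.10. Signal over background limits the list to genes above it in both channels.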
